A study of Mus musculus with 24 samples.

Results

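Impact and 8 further genes of the integrated stress response were followed through all 24 RNA-seq libraries of cells sorted from the mouse ileum. The 9 genes are Impact, Eif2ak4, Atf4, Ddit3, Asns, Trib3, Chac1, Sesn2 and Ppp1r15a, out of 39056 genes in the count table, of which 23189 had at least 1 count. Impact entered because it passed the test for Il4ra genotype in CD45+ cells, so its values in those libraries are given as a description. The other 8 were named for their place in the pathway, with earlier results of these data known. The question was whether the Impact difference extended to them. All 9 passed the filter on low counts in both fractions.

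Live cells were sorted by CD45, the surface protein of blood-derived cells, so that the CD45- fraction held the epithelium, vessels and connective tissue. They came from the ileum, the last stretch of the small intestine, of mice labelled C57BL/6 (a C57BL/6 J background in the study) and aged 9.0 to 10.3 weeks. The 4 genotypes were Hoil1+/+ Il4ra f/f, Hoil1-/- Il4ra f/f, Hoil1+/+ Il4ra ΔIEC and Hoil1-/- Il4ra ΔIEC, with 3 libraries in each of the 8 groups. All mice carried both Il4ra alleles flanked by loxP sites. The ΔIEC mice also carried a Villin-driven Cre, which removes IL4Rα from intestinal epithelial cells (IECs) and leaves it in other cells, CD45+ cells among them. No group had Cre without the loxP sites, so the transgene and the deletion cannot be told apart. The Hoil1-/- allele is a partial loss, since these mice still make some of the N-terminal part of HOIL1. Libraries held 14938629 to 76807504 gene counts in CD45+ cells and 6028275 to 68345191 in CD45- cells. The study left out 3 libraries as outliers: CD45+ Hoil1-/- Il4ra f/f replicate 1, CD45+ Hoil1-/- Il4ra ΔIEC replicate 3 and CD45- Hoil1-/- Il4ra f/f replicate 3. Tests used the other 10 CD45+ and 11 CD45- libraries, and values of the 3 are given beside those of the genes listed by library. The labels do not say that each library came from a different mouse, so the p-values measure the spread between libraries. Nor do they tie the fractions to mice, although the labelled ages are the same in both fractions of each Il4ra ΔIEC genotype (9.7, 9.7 and 9.0 weeks for Hoil1+/+, 9.6, 9.6 and 9.1 weeks for Hoil1-/-).

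The integrated stress response is a switch that lowers general protein synthesis when a cell meets stress. Kinases, among them GCN2 (Eif2ak4), which senses uncharged tRNA, phosphorylate the initiation factor eIF2. General translation then falls while the transcription factor ATF4 is translated more, and ATF4 raises genes for amino acid supply and for stress control. IMPACT holds GCN2 back by competing for its activator GCN1. In the mouse, Impact is imprinted and is transcribed from the paternal allele. In the intestine the pathway is known for its part in secretory and epithelial cells under nutrient or protein-folding stress. Much of this control acts on translation and phosphorylation, which RNA counts do not measure.

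The genotype and sort labels were checked first. Rbck1, which encodes HOIL1, was at 105 ± 23.2 CPM (SD, n = 3; CPM is the count scaled to a fixed library total) in CD45+ Hoil1+/+ Il4ra f/f cells and 6.93 ± 3.11 CPM (n = 2) in Hoil1-/- Il4ra f/f cells. Across all 24 libraries, the highest Hoil1-/- value was 13.9 CPM and the lowest Hoil1+/+ value was 79.5 CPM. Il4ra RNA did not check the deletion, since the counts cover the whole gene and other cells keep it: its log2 fold change by Il4ra genotype was 0.02 ± 0.35 (SE) in CD45- cells and 1.09 ± 0.28 in CD45+ cells (adjusted p = 0.283, edgeR). Ptprc, which encodes CD45, was 8.24 ± 0.86 (log2) higher in CD45+ than in CD45- cells, and the epithelial gene Epcam had a log2 change of -4.23 ± 0.35, with adjusted p = 8.40e-07 and 8.60e-08 (edgeR). Xist and Ddx3y, from the X and Y chromosomes, showed both sexes in the study, unequally spread over groups: all 6 Hoil1+/+ Il4ra f/f libraries were male, as were all 5 CD45- Il4ra f/f libraries on the study's list.

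Impact lies on chromosome 18 (GRCm38, 12955852 to 12992950, plus strand; ENSMUSG00000024423.5) and encodes the GCN2 inhibitor. Levels are given as CPM scaled by TMM over the 12 libraries of a fraction. In CD45+ cells of Hoil1+/+ Il4ra f/f mice Impact was at 11.3, 12.9 and 14.2 CPM, and in Hoil1-/- Il4ra f/f mice at 19.6 and 19.7 CPM, with 18.5 CPM in the replicate left out by the study. In Hoil1+/+ Il4ra ΔIEC mice the levels were 28.6, 34.8 and 32.3 CPM. Hoil1-/- Il4ra ΔIEC mice had 62.8 and 54.0 CPM, and 14.2 CPM in the library left out. Among the 10 libraries of the study's list, all 5 Il4ra ΔIEC libraries were above all 5 Il4ra f/f libraries, and the 4 genotypes formed 4 ranges that did not overlap. The exception over all 12 was the Il4ra ΔIEC library left out, whose level was within the Il4ra f/f range.

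**Figure D1:**
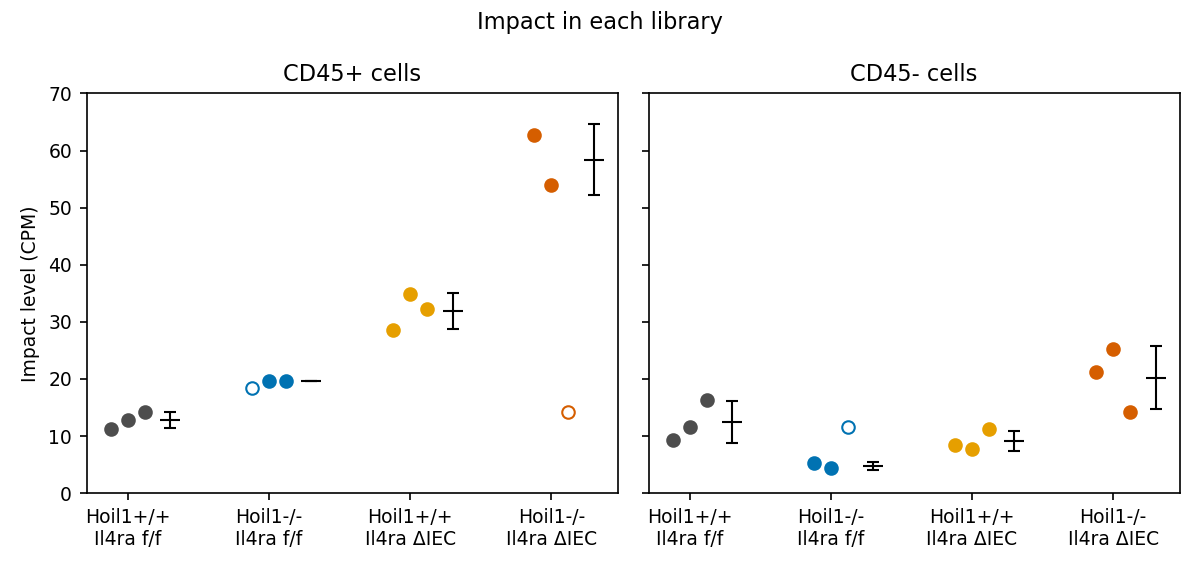
Impact level (CPM) in every library of CD45+ cells (left) and CD45- cells (right) by genotype. Filled points are libraries on the study's list, open points those it left out, and the black marks are the mean ± SD of the filled points (n = 2 or 3). CD45+ Il4ra ΔIEC libraries on the list sit between 28.6 and 62.8 CPM and Il4ra f/f libraries between 11.3 and 19.7 CPM. In CD45- cells the Il4ra groups, with the Hoil1 genotypes pooled, overlap.

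The means in CD45+ cells were 12.8 ± 1.43 CPM (SD, n = 3) for Hoil1+/+ Il4ra f/f, 19.7 ± 0.0751 CPM (n = 2) for Hoil1-/- Il4ra f/f, 31.9 ± 3.13 CPM (n = 3) for Hoil1+/+ Il4ra ΔIEC and 58.4 ± 6.29 CPM (n = 2) for Hoil1-/- Il4ra ΔIEC. The fitted difference, Il4ra ΔIEC minus f/f averaged over the Hoil1 genotypes, was 1.47 ± 0.15 (log2, SE), and it was 1.25 ± 0.30 with all 12 libraries. Impact was the 1 gene of 17029 called (0.00587%), which is how it was chosen. It stood just inside that threshold, with an adjusted p of 0.0340 in edgeR's quasi-likelihood test and 0.864 with all 12 libraries, and it lay above 0.05 when any 1 of 9 of the 10 libraries was left out (the exception being Hoil1+/+ Il4ra f/f replicate 3, at 0.0289). With Xist as a covariate this contrast called 0 genes, so Impact was not called. The levels rest on 362 to 2206 counts of Impact per CD45+ library and on 53 to 845 per CD45- library.

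In CD45- cells, which did not choose the gene, the Il4ra groups overlapped. Impact was at 9.24, 11.6 and 16.4 CPM in Hoil1+/+ Il4ra f/f mice and at 5.31 and 4.33 CPM in Hoil1-/- Il4ra f/f mice, with 11.6 CPM in the library left out. It was at 8.52, 7.79 and 11.2 CPM in Hoil1+/+ Il4ra ΔIEC mice and at 21.3, 25.2 and 14.2 CPM in Hoil1-/- Il4ra ΔIEC mice. From the highest mean to the lowest, Hoil1-/- Il4ra ΔIEC overlapped Hoil1+/+ Il4ra f/f, which overlapped Hoil1+/+ Il4ra ΔIEC, and Hoil1-/- Il4ra f/f lay below all others on the list. The Il4ra difference was 0.82 ± 0.31 (log2, SE), with adjusted p = 0.808 and an unadjusted p of 0.0236 (edgeR). Of 16453 genes, 0 were called (0%), 971 had an unadjusted p under 0.05, and the likelihood ratio test and DESeq2 called 143 and 199, none of them among the 9 genes. On CPM without TMM scaling, the exact permutation test of the 6 Il4ra ΔIEC against the 5 Il4ra f/f libraries gave a difference of 0.62 (log2) and p = 0.277, two-sided over 462 regroupings. With TMM scaling the exact test gave 0.67 and p = 0.169. The exact test pooled the Hoil1 genotypes, so differences between them enter its spread. Averaged over the Hoil1 genotypes, the difference seen in CD45+ cells thus passed in CD45- cells neither after adjustment over all genes tested nor in the exact test. Whether the fractions differ in it was not tested. The Hoil1 genotypes went opposite ways. In Hoil1-/- mice the Il4ra ΔIEC libraries (14.2 to 25.2 CPM) were above the Il4ra f/f libraries (4.33 and 5.31 CPM, and 11.6 CPM in the one left out). In Hoil1+/+ mice the mean was lower in Il4ra ΔIEC (9.17 CPM) than in Il4ra f/f libraries (12.4 CPM).

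The Hoil1 genotypes differed in opposite directions in CD45- cells. Both Hoil1-/- Il4ra f/f libraries on the list were below all 3 Hoil1+/+ Il4ra f/f libraries, whereas all 3 Hoil1-/- Il4ra ΔIEC libraries were above all 3 Hoil1+/+ Il4ra ΔIEC libraries. The interaction was 2.51 ± 0.63 (log2, SE), with adjusted p = 0.121 in the quasi-likelihood test. In that contrast 0 of 16453 genes (0%) were called, 3409 had an unadjusted p under 0.05, and the median over all genes was itself 0.295 (log2). It passed in the likelihood ratio test (adjusted p = 0.0157, 1223 genes called) and in DESeq2 (adjusted p = 0.0010, 1572 called), and fell to 1.96 ± 0.70 with all 12 libraries. In CD45+ cells, whose levels chose Impact, its Hoil1 and interaction values are a description. There Impact was higher in Hoil1-/- than in Hoil1+/+ cells by 0.74 ± 0.14 (log2, SE), and by 0.52 ± 0.29 with all 12 libraries. The Hoil1 contrast called 1 gene of 17029 (0.00587%), Rbck1. The interaction in CD45+ cells was 0.22 ± 0.29 (log2, SE). Markers of group 2 innate lymphoid cells (ILC2) also differed by Hoil1 genotype in CD45+ cells, and their part was not tested. They summed to 131 to 574 CPM in Hoil1-/- and 30.6 to 109 CPM in Hoil1+/+ libraries on the list. Klrg1, Nmur1, Il5 and Il17rb among these markers were reported by the study as differing by Hoil1 genotype in the same libraries. The difference in the sum was thus in part fixed in advance. The Hoil1-/- libraries left out had 130.0 CPM (Il4ra f/f) and 109 CPM (Il4ra ΔIEC).

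Markers of other cell types differed along with Impact in part of the libraries. In CD45+ cells the 6 plasma cell markers summed to 17693 to 42155 CPM in the 5 Il4ra f/f libraries on the list and to 7523 to 13816 CPM in the 5 Il4ra ΔIEC libraries, without overlap. Jchain made up 96.5% of that sum, and no gene of the list was at 0. The library of Hoil1-/- Il4ra ΔIEC mice left out, with Impact at 14.2 CPM, had 36182 CPM of plasma cell markers, and the Hoil1-/- Il4ra f/f library left out had 13454 CPM with Impact at 18.5 CPM. Within the Il4ra f/f libraries on the list, plasma cell markers ranged over 17693 to 42155 CPM while Impact stayed between 11.3 and 19.7 CPM. Of the 8 B cell markers, 6 were higher in Il4ra ΔIEC cells at an unadjusted p under 0.05, with a median of 1.97 (log2) over the list, against 10.6% and a median of -0.01 over all genes tested. Their sums overlapped, at 229.5 to 768 CPM (median 628) in Il4ra f/f and 437 to 1414 CPM (median 715) in Il4ra ΔIEC libraries on the list. Mast cell and eosinophil markers summed to 480.2 to 1513 CPM (median 715) in Il4ra f/f and 198 to 573 CPM (median 221) in Il4ra ΔIEC libraries on the list, with 1149 and 1349 CPM in the respective libraries left out. Myeloid markers summed to 5845 to 13259 CPM and 3834 to 6810.5 CPM, with 16492 and 11524 CPM in those left out. No marker of these 4 lists passed after adjustment. In CD45- cells the 6 endothelial markers summed to 5021 and 5758 CPM in the libraries with the highest Impact levels and to 932 and 1535 CPM in the 2 with the lowest. The libraries between did not follow that order: 4847 and 4537 CPM of endothelial markers went with Impact at 11.6 and 11.2 CPM, and 2686 and 1976 CPM with Impact at 16.4 and 14.2 CPM. The part of cell composition in these differences was not tested, and in sorted bulk RNA a change in the share of a cell type and a change of RNA per cell cannot be told apart.

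**Figure D2:**
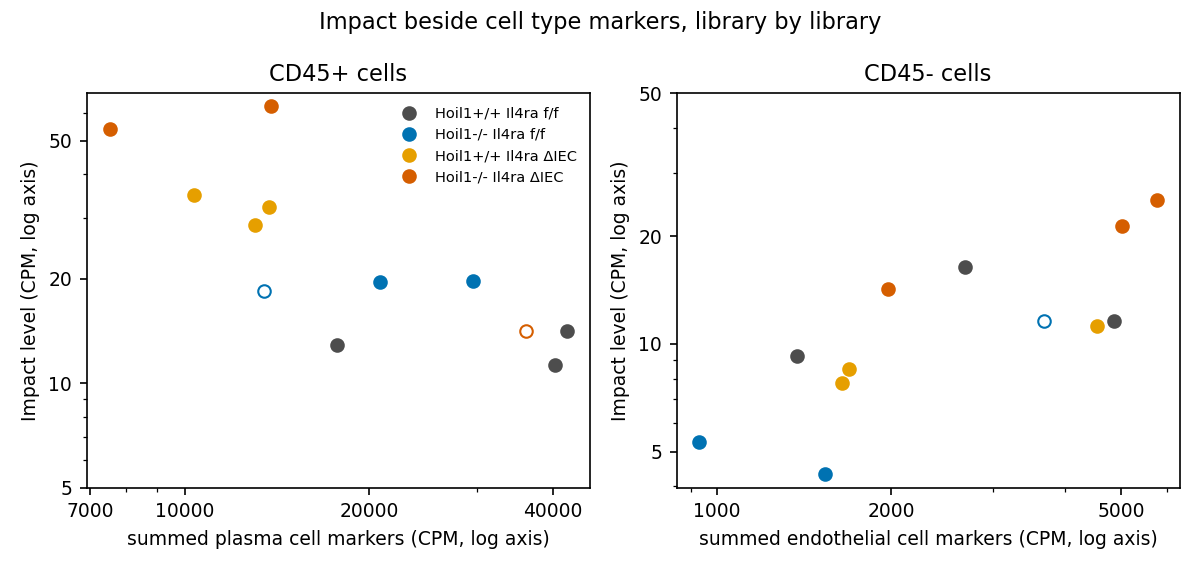
Impact level (CPM) against the summed plasma cell markers in CD45+ cells (left) and the summed endothelial cell markers in CD45- cells (right), all on log axes, with 1 point per library coloured by genotype. Open points are libraries the study left out. Il4ra ΔIEC libraries on the list lie at 7523 to 13816 CPM of plasma cell markers, and the open Il4ra ΔIEC point lies at 36182 CPM among the Il4ra f/f libraries.

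Most genes around Impact were too low in CD45+ cells to compare with it. The 3 nearest tested genes on either side were Ttc39c, Cabyr and Osbpl1a on the left and Hrh4, Zfp521 and Gm6457 on the right, and none of the 6 tested in CD45+ cells or the 4 tested in CD45- cells was called by Il4ra genotype. In CD45+ cells 5 of the 6 had a median under 2 CPM. Osbpl1a, which encodes an oxysterol-binding protein and ends 14 kb from Impact, had a log2 fold change of -0.56 ± 0.58 (SE) in CD45+ cells and 1.06 ± 0.84 in CD45- cells, where Impact had 0.82 ± 0.31. Hrh4, a histamine receptor 14 kb on the other side, stayed at or below 0.908 CPM in CD45+ cells. Ttc39c, at a median of 7.16 CPM in CD45+ cells, had a log2 fold change of 0.00 ± 0.29 there. Of 15 other paternally expressed imprinted genes, 11 were tested in CD45+ cells, where the Il4ra contrast called none, 0 had an unadjusted p under 0.05 and the median was -0.07 (log2).

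The genes whose levels most resembled those of Impact over the 12 CD45+ libraries were Hnrnpdl, Crem, Tob2, Wdr25 and Daxx, with Pearson r of log2(CPM + 0.5) from 0.89 to 0.91 among 12740 genes. Crem, a cAMP-responsive transcription factor, ranged from 10.3 to 33.2 CPM in Il4ra f/f and from 16.1 to 102 CPM in Il4ra ΔIEC libraries. Hnrnpdl encodes an RNA-binding protein, and its median was 73.9 CPM in Il4ra f/f and 112 CPM in Il4ra ΔIEC libraries. In CD45- cells the 5 genes were Arhgef25, Trib2, Kirrel, Ccnd3 and Trim65 (r from 0.91 to 0.92 among 13922 genes), so none was shared between the fractions. Of the other 8 pathway genes, Ddit3 (r = 0.80), Atf4 (0.76) and Ppp1r15a (0.74) followed Impact in CD45+ cells, while in CD45- cells the same 3 had r of -0.44, 0.25 and 0.58. These coefficients describe 12 libraries that share genotype and cell composition, and they carry no test.

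Eif2ak4, the kinase GCN2 that IMPACT restrains, lies on chromosome 2 (118388618 to 118475234, plus strand). It did not follow Impact. In CD45+ cells it ranged from 3.98 to 15.0 CPM (median 11.7) in the 5 Il4ra f/f libraries on the list and from 7.35 to 15.8 CPM (median 9.28) in the 5 Il4ra ΔIEC libraries. The ranges overlapped almost fully, and the difference was -0.10 ± 0.38 (log2, SE) in CD45+ and -0.09 ± 0.43 in CD45- cells. Per kilobase of exon, on a scale set over all 24 libraries, median levels in CD45+ cells ran from Atf4 at 122 and Ppp1r15a at 108 CPM per kb through Ddit3 at 29.7, Sesn2 at 10.8, Impact at 4.37 and Asns at 3.8 to Eif2ak4 at 1.56, Chac1 at 1.36 and Trib3 at 0.815. In CD45- cells Impact, at 1.93 CPM per kb, was below Eif2ak4, at 2.35 CPM per kb.

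The 6 genes listed as eIF2 kinases and GCN2 regulators included Impact, and beside it none was called by Il4ra genotype in CD45+ cells: the other 5, Eif2ak1 to Eif2ak4 and Gcn1l1 (GCN1), all had an unadjusted p of at least 0.05. None of the 8 genes for eIF2 and its exchange factor eIF2B was called either.

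Atf4 encodes the transcription factor at the centre of the pathway (chromosome 15, 80255184 to 80257541, plus strand). In CD45+ cells it was at 232, 158 and 343 CPM in Hoil1+/+ Il4ra f/f libraries, 215 and 192 CPM in Hoil1-/- Il4ra f/f, 275, 346 and 310.4 CPM in Hoil1+/+ Il4ra ΔIEC, and 377 and 453 CPM in Hoil1-/- Il4ra ΔIEC. The third Hoil1+/+ Il4ra f/f library was within the Il4ra ΔIEC range, and the other 4 Il4ra f/f libraries were below it. The libraries left out were at 210.5 CPM (Il4ra f/f) and 204 CPM (Il4ra ΔIEC). The difference was 0.71 ± 0.23 (log2, SE), with adjusted p = 0.368 (edgeR).

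Ddit3, which encodes CHOP, the factor linked to stress-induced cell death (chromosome 10, 127290774 to 127296288, plus strand), also had its highest Il4ra f/f level in the third Hoil1+/+ library. Its levels were 21.9, 24.6 and 61.3 CPM in Hoil1+/+ Il4ra f/f, 26.9 and 38.7 CPM in Hoil1-/- Il4ra f/f, 43.3, 57.0 and 59.9 CPM in Hoil1+/+ Il4ra ΔIEC, and 68.8 and 92.3 CPM in Hoil1-/- Il4ra ΔIEC. The Il4ra ΔIEC library left out was at 21.5 CPM, below all Il4ra f/f libraries, and the Il4ra f/f one at 45.4 CPM. The difference was 0.96 ± 0.30 (log2, SE; adjusted p = 0.359, edgeR). Ddit3 overlaps Mars, a tRNA synthetase gene on the opposite strand with 35806 counts over all libraries. Whether the counting used strand is not given in the sources used here, so reads of the pair may not be told apart. Mars had a log2 fold change of -0.66 ± 0.28 in the same contrast.

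Ppp1r15a encodes GADD34, which brings a phosphatase to eIF2 and ends the response (chromosome 7, 45522916 to 45526268, minus strand). It was at 166, 181 and 484 CPM in Hoil1+/+ Il4ra f/f, 234 and 147 CPM in Hoil1-/- Il4ra f/f, 285, 359 and 458 CPM in Hoil1+/+ Il4ra ΔIEC, and 521 and 665 CPM in Hoil1-/- Il4ra ΔIEC. The Il4ra ΔIEC library left out was at 109.7 CPM, below all Il4ra f/f libraries, and the Il4ra f/f one at 267 CPM. The difference was 1.05 ± 0.34 (log2, SE; adjusted p = 0.370, edgeR). Again the third Hoil1+/+ Il4ra f/f library was high. That library also had the highest sum of 13 immediate-early and heat-shock genes that rise during tissue dissociation, 26294 CPM, against 2814 to 10110.4 CPM in the other 4 Il4ra f/f libraries and 8099.6 to 20393 CPM in the 5 Il4ra ΔIEC libraries. The part of dissociation in these levels was not tested.

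Sesn2, which encodes Sestrin 2, a leucine sensor that restrains mTORC1 (chromosome 4, 132492032 to 132510501, minus strand), differed by 0.69 ± 0.18 (log2, SE; adjusted p = 0.286, edgeR), and DESeq2 gave an adjusted p of 0.0477. Its levels were 28.8, 29.1 and 38.6 CPM in Hoil1+/+ Il4ra f/f and 28.1, 26.8 and 39.3 CPM in Hoil1+/+ Il4ra ΔIEC libraries, so these genotypes overlapped fully. Hoil1-/- Il4ra f/f libraries had 17.2 and 19.8 CPM and Hoil1-/- Il4ra ΔIEC libraries 40.3 and 55 CPM, and the libraries left out had 38.5 and 38.9 CPM. The difference on the list was thus carried by the Hoil1-/- libraries. The interaction was 1.37 ± 0.37 (log2, SE; adjusted p = 0.595, edgeR), in a contrast that called 0 of 17029 genes (0%), with 1193 at an unadjusted p under 0.05, 68 called by the likelihood ratio test and 191 by DESeq2.

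Of the 8 genes beside Impact, 5 had an unadjusted p under 0.05 for Il4ra genotype in CD45+ cells, where 10.6% of all genes did, and 0 passed after adjustment in the quasi-likelihood test. Atf4, Ddit3, Ppp1r15a and Sesn2 had higher fitted levels in Il4ra ΔIEC cells and Asns lower ones. The ranges of the Il4ra groups overlapped for all 8. On the list, 0.934% of genes had all Il4ra ΔIEC libraries above all Il4ra f/f libraries and 1.29% had them all below, and over all 12 libraries 0.0998% had them above. With all 12 libraries, 1 of the 8, Atf4, had an unadjusted p under 0.05, as did 5.49% of all genes, and the fitted values fell to 0.54 ± 0.24 for Atf4, 0.65 ± 0.36 for Ddit3, 0.70 ± 0.42 for Ppp1r15a and 0.40 ± 0.23 for Sesn2 (log2, SE).

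**Figure D3:**
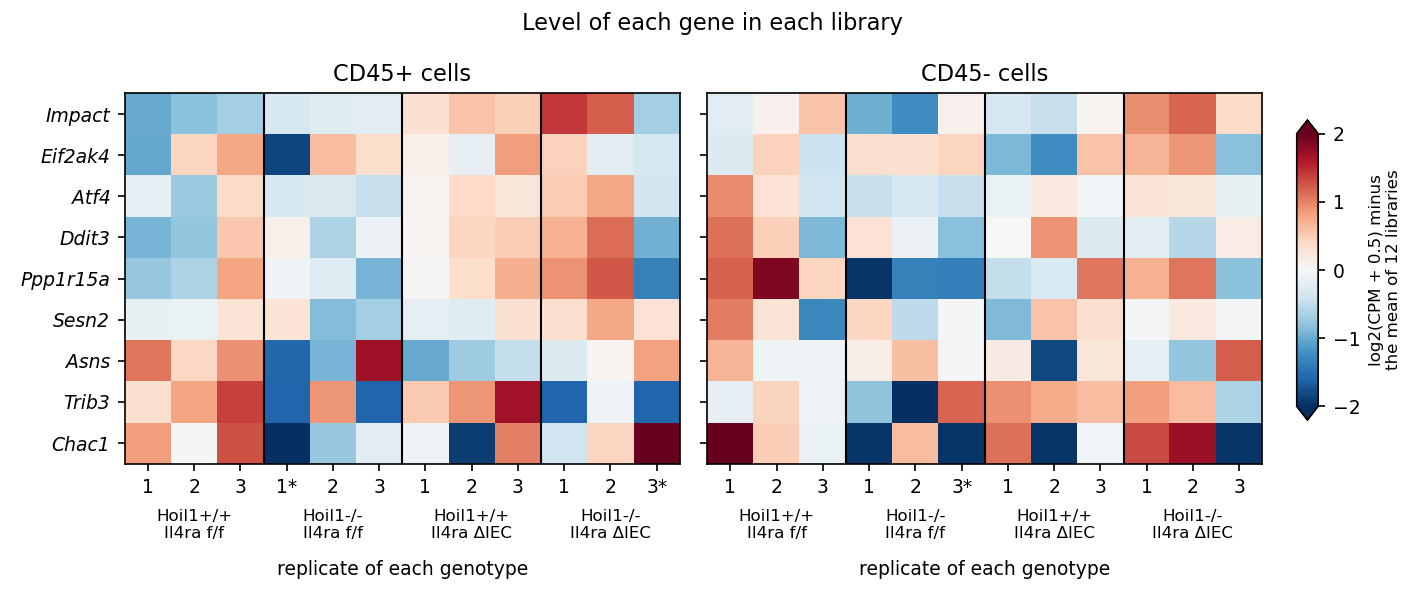
Level of each gene in each library as log2(CPM + 0.5) minus the gene's mean over the 12 libraries of the fraction, with columns grouped by genotype and numbered by replicate; an asterisk marks a library the study left out, and colours stop at a difference of 2. In CD45+ cells Impact, Atf4, Ddit3 and Ppp1r15a are above their means (red) together in the Il4ra ΔIEC libraries on the list, whereas Asns is not, and no such block appears in CD45- cells.

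In CD45- cells none of the genes beside Impact separated the Il4ra genotypes when the Hoil1 genotypes were pooled. Within Hoil1-/- mice on the list Atf4 and Ppp1r15a did, with higher levels in Il4ra ΔIEC libraries, whereas Ddit3 and Sesn2 overlapped. The share of all genes that separate in these few libraries was not counted, so the separations are a description. Atf4 was there at 155 and 168 CPM in Il4ra f/f (153 CPM in the library left out) and at 252, 248 and 190.0 CPM in Il4ra ΔIEC libraries. Within Hoil1+/+ mice Atf4, Ddit3, Ppp1r15a and Sesn2 all overlapped. Trib3 did not, with 4.97, 7.82 and 5.20 CPM in Il4ra f/f and 11.1, 9.70 and 8.93 CPM in Il4ra ΔIEC libraries. In Hoil1-/- mice Trib3 was at 3.02 and 0 CPM in Il4ra f/f (13.3 CPM in the library left out) and at 10.3, 8.87 and 3.46 CPM in Il4ra ΔIEC libraries. Its Il4ra difference was 1.54 ± 0.87 (log2, SE; adjusted p = 0.821, edgeR). The fitted differences (log2, SE) were 0.07 ± 0.25 for Atf4, -0.22 ± 0.36 for Ddit3, 0.56 ± 0.43 for Ppp1r15a and -0.07 ± 0.46 for Sesn2. Ppp1r15a varied most, from 67.4 and 103 CPM in listed Hoil1-/- Il4ra f/f libraries (101 CPM in the one left out) to 597, 961 and 353 CPM in Hoil1+/+ Il4ra f/f libraries. In Il4ra ΔIEC mice the Hoil1 genotypes overlapped, with 426, 553 and 148 CPM in Hoil1-/- and 188, 212 and 544 CPM in Hoil1+/+ libraries. Averaged over the Il4ra genotypes, the fitted log2 change in Hoil1-/- CD45- cells was -1.32 ± 0.44 (SE; adjusted p = 0.828, edgeR), in a contrast that called 3 of 16453 genes (0.0182%) and none of the 9. Its interaction was 3.16 ± 0.89 (log2, SE; adjusted p = 0.132, edgeR), with adjusted p = 0.0193 in the likelihood ratio test, 0.00827 in DESeq2 and 0.0325 without Hoil1+/+ Il4ra ΔIEC replicate 3. The summed immediate-early and heat-shock genes were likewise lowest in the Hoil1-/- Il4ra f/f libraries, at 2064 and 2754 CPM, against 10541 to 25282 CPM in Hoil1+/+ Il4ra f/f libraries, and their part was not tested.

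Asns, Trib3 and Chac1 are textbook targets of ATF4. Asns makes asparagine, Trib3 encodes a pseudokinase that feeds back on the pathway, and Chac1 degrades glutathione. ATF4 with a C/EBP partner binds composite elements (CARE) that often hold the letters TGATGNAA. These letters were sought on both strands in RefSeq promoter windows (GRCm38.p6, 250 bases before to 50 after a start), which were found for 8 of the 9 genes, and 3.97% of 32851 windows hold them. They occur in the windows of Asns, Trib3 and Chac1 and not in those of Eif2ak4, Atf4, Ddit3, Sesn2 and Ppp1r15a. The window of Ppp1r15a holds a cAMP response element, TGACGTCA, found in 1.79% of windows; the same letters read on both strands. The stretches of 30 bases around each match, written along the gene's strand with the match in capitals, show the elements by which the pathway's targets are usually recognised:
Asns (chr6:7693214-7693243, minus strand, match 23 to 16 bases before the start): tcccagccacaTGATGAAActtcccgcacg
Trib3 (chr2:152344028-152344057, minus strand, match 15 to 22 bases after the start, on the other strand): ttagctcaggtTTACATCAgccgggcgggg
Chac1 (chr2:119351038-119351067, plus strand, match 193 to 186 bases before the start, on the other strand): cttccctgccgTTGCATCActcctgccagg
Ppp1r15a (chr7:45526262-45526291, minus strand, match 12 to 5 bases before the start): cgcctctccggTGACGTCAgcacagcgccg

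In CD45+ cells the 3 genes with a CARE match in the window were not among those with higher fitted levels beside Impact. Low counts of Trib3 and Chac1 limit that comparison. A window without the letters does not show that a gene lacks the element elsewhere, and the part of ATF4 in these levels was not tested. In CD45- cells the fitted Il4ra difference was 1.54 ± 0.87 for Trib3 (log2, SE). It was -0.24 ± 0.44 for Asns and -0.13 ± 1.38 for Chac1, and none of the 3 was called. Asns (chromosome 6, 7675169 to 7693254, minus strand) was at 21.2, 13.2 and 19 CPM in CD45+ Hoil1+/+ Il4ra f/f and at 4.60, 5.83 and 6.93 CPM in Hoil1+/+ Il4ra ΔIEC libraries, which did not overlap. In Hoil1-/- mice it was at 4.94 and 32.8 CPM in Il4ra f/f and at 8.0 and 10.2 CPM in Il4ra ΔIEC libraries on the list, which did. The libraries left out ran the other way, with 2.97 CPM in Il4ra f/f and 17.6 CPM in Il4ra ΔIEC. The fitted difference was -1.30 ± 0.44 (log2, SE; adjusted p = 0.383, edgeR), and it ranged from -1.70 to -0.35 when single libraries were left out. Trib3 (chromosome 2, 152337422 to 152344032, minus strand) lies near Rbck1 (152316334 to 152332653, same strand), the gene mutated in Hoil1-/- mice. The part of that allele in the Trib3 levels was not tested. Its fitted Hoil1 differences were -1.80 ± 1.39 in CD45+ and -1.21 ± 0.86 in CD45- cells (log2, SE), neither called. Trib3 had between 0 and 4.31 CPM in CD45+ cells, with no read in 4 of 12 libraries, all Hoil1-/-. For the Hoil1-/- Il4ra f/f library of 41721798 counts, a count of 0 allows up to 0.0928 CPM (3 counts on the same scale), which covers counting error alone. Chac1 (chromosome 2, 119351229 to 119354381) had between 0 and 11.1 CPM. The Il4ra differences in CD45+ cells were -0.51 ± 1.31 for Trib3 and -0.02 ± 0.78 for Chac1 (log2, SE). Their errors were too large at these levels to detect a change of the size of that of Impact.

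**Figure D4:**
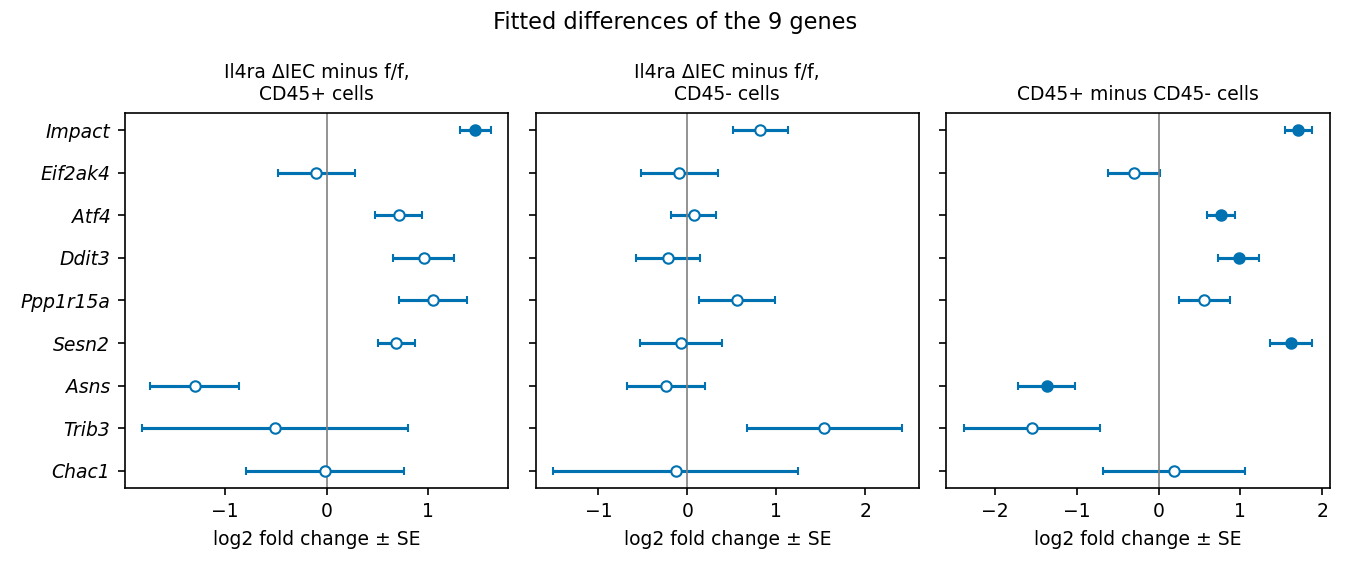
Fitted log2 fold change ± SE of the 9 genes for Il4ra genotype in CD45+ cells (left) and CD45- cells (middle) and for CD45+ against CD45- cells (right). Filled points have an adjusted p under 0.05 in edgeR's quasi-likelihood test. For Il4ra genotype, Impact (1.47) in CD45+ cells is the one filled point, and Asns (-1.30) lies on the other side of 0 from Atf4, Ddit3, Ppp1r15a and Sesn2.

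The wider pathway was taken as 63 genes in 8 lists by role, Impact among them. In CD45+ cells 62 were tested for Il4ra genotype, and 1 was called, Impact itself. Of the 61 without Impact, 7 had higher and 9 lower fitted levels in Il4ra ΔIEC cells at an unadjusted p under 0.05, that is 26.2% against 10.6% of all genes, and the median was -0.19 (log2) against -0.01. The medians of the lists differed in sign. All 10 genes of amino acid synthesis had negative values (median -0.55, log2), with Asns, Phgdh (-0.64 ± 0.24, log2, SE; serine synthesis), Pycr1 (-1.44 ± 0.56; proline synthesis) and Aldh18a1 (-0.57 ± 0.22; proline synthesis) at an unadjusted p under 0.05, none of them called. Their summed levels overlapped, at 250.1 to 471 CPM in Il4ra f/f and 222 to 291 CPM in Il4ra ΔIEC libraries on the list. The Il4ra ΔIEC library left out, with plasma cell markers at 36182 CPM, had 476 CPM, the highest of all 12, and the part of plasma cells was not tested. Of 12 tRNA synthetases, 11 had negative values (median -0.27), 3 of them at an unadjusted p under 0.05. Of 7 transcription factors, 6 had positive values (median 0.62), and their sums overlapped, at 398 to 2712 CPM in Il4ra f/f and 850.4 to 2054 CPM in Il4ra ΔIEC libraries on the list. The highest library of each Il4ra genotype, led by Atf3, also had that genotype's highest sum of dissociation-associated genes (26294 and 20393 CPM), whose part was not tested. Of 9 stress targets tested, 5 had positive and 4 negative values (median 0.05), 3 of them higher at an unadjusted p under 0.05, and their sums overlapped, at 278 to 451 CPM and 346 to 566 CPM. Among them Gdf15, a secreted stress cytokine, had 2.59 ± 0.73 (adjusted p = 0.303, edgeR).

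Secretory chaperones were not called in this contrast. Of 15 genes of the ATF6 and XBP1 branches of the unfolded protein response, 13 had negative values (median -0.53, log2), and 4, among them Xbp1, had an unadjusted p under 0.05 (26.7%, against 10.6% of all genes). Their summed levels overlapped, at 3857 to 9753 CPM in Il4ra f/f and 3376 to 5916 CPM in Il4ra ΔIEC libraries on the list, with 7839.5 CPM in the Il4ra ΔIEC library left out. Plasma cell markers, which summed to 17693 to 42155 CPM and 7523 to 13816 CPM in the same groups and to 36182 CPM in that library, differed along with them, and their part was not tested. In CD45- cells 61 of the 63 pathway genes were tested for Il4ra genotype and 0 were called by the quasi-likelihood test, the likelihood ratio test or DESeq2, while the last 2 called 143 and 199 genes in all. At an unadjusted p under 0.05 there were 2 pathway genes (3.28%, against 5.90% of all genes), and the median was -0.05 (log2), against 0.06 over all genes tested.

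**Figure D5:**
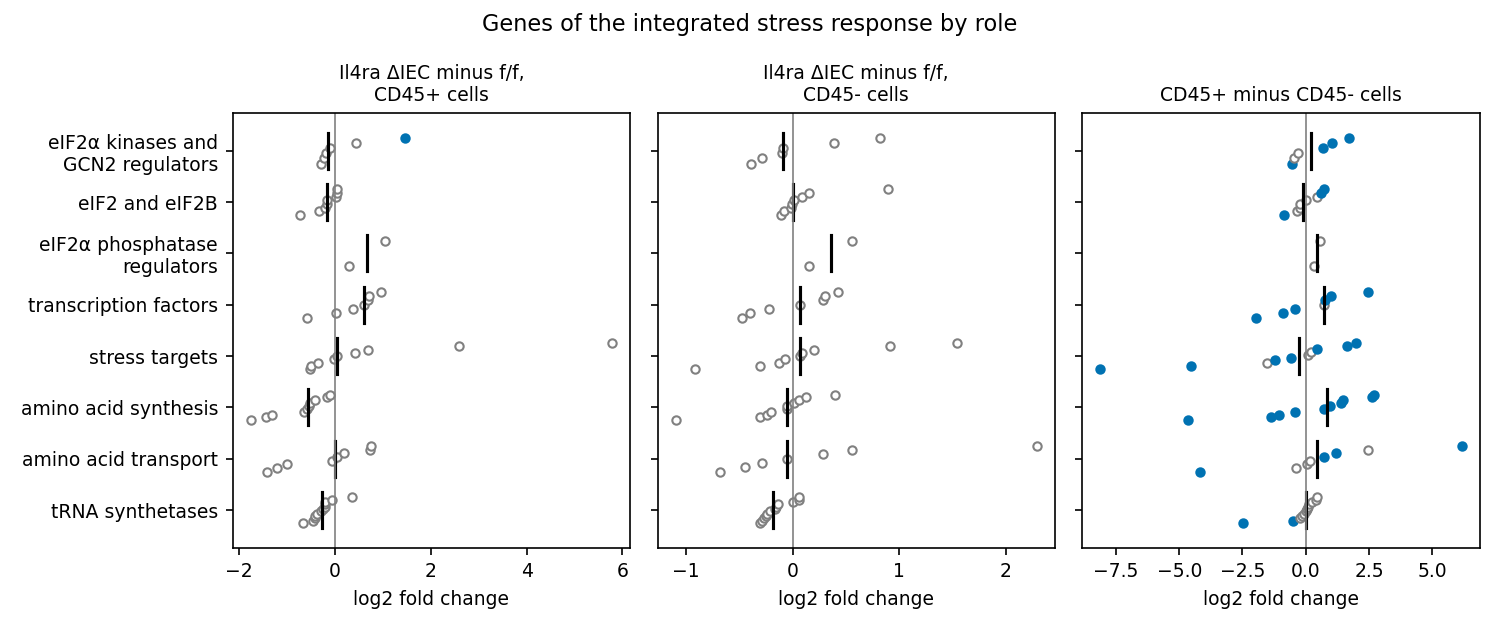
Fitted log2 fold change of each pathway gene by role, for Il4ra genotype in CD45+ cells (left) and CD45- cells (middle) and for CD45+ against CD45- cells (right), with axes scaled separately. Each point is a gene, filled where its adjusted p is under 0.05, and the black bar is the median of the list. The bar for amino acid synthesis lies at -0.55 on the left, and filled points lie on both sides of 0 on the right.

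By the number of genes called, the sorted fractions themselves differed more than the genotypes. Impact is only described here, since the CD45+ levels that chose it enter the comparison. It was higher in CD45+ than in CD45- cells by 1.71 ± 0.16 (log2, SE), averaged over the 4 genotypes. On a scale set over all 24 libraries it ranged from 12.7 to 71.9 CPM (median 22.4) in the 12 CD45+ and from 3.90 to 23.2 CPM (median 9.92) in the 12 CD45- libraries, which overlapped. Of the 8 genes beside Impact, 4 were called, in a contrast that called 49.6% of 18778 genes, so the count is near the background. Sesn2 (1.62 ± 0.26), Ddit3 (0.98 ± 0.25) and Atf4 (0.76 ± 0.17) were higher in CD45+ cells, with adjusted p of 7.39e-05, 0.00399 and 0.00158 (edgeR). Asns was lower, with a log2 change of -1.37 ± 0.35 (adjusted p = 0.00337): its median was 10.4 CPM in CD45+ and 30.6 CPM in CD45- libraries. Ppp1r15a (0.56 ± 0.31), Eif2ak4 (-0.30 ± 0.32), Trib3 (-1.55 ± 0.83) and Chac1 (0.19 ± 0.87) did not pass, though Trib3 did with all 24 libraries (-2.30 ± 0.93, adjusted p = 0.0452).

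Over the 63 pathway genes the fractions differed in both directions, with 20 called higher and 16 lower in CD45+ cells, where 24.5% and 25.1% of all genes were. The 10 genes of amino acid synthesis were all called: 6 higher, among them Phgdh (2.62 ± 0.25, log2, SE), which starts serine synthesis, and Pycr1 (2.70 ± 0.58), and 4 lower, among them Cth (-4.64 ± 0.49), which makes cysteine. Phgdh ranged from 36.2 to 107 CPM in the CD45+ and from 3.68 to 17.7 CPM in the CD45- libraries on the list, without overlap. Transport genes split too. The cystine transporter Slc7a11 had a median of 10.3 CPM in CD45+ cells and of 0 in CD45- cells (6.16 ± 1.18), and the glycine transporter Slc6a9 had medians of 1.39 and 23.7 CPM (-4.17 ± 0.80). Cebpb, a partner of ATF4, was higher in CD45+ cells (2.47 ± 0.39), and the lipoprotein receptor Vldlr (-8.11 ± 1.27) and the secreted factor Stc2 (-4.53 ± 1.03) were lower. Where a fraction had libraries at 0, as for Vldlr, Slc7a11, Stc2, Cth, Slc6a9 and Pycr1, the size of the fitted value depends on the small count that edgeR adds. Among the kinases, Eif2ak3 (PERK, 1.02 ± 0.22) and Eif2ak1 (0.68 ± 0.14) were higher in CD45+ cells and Gcn1l1 (-0.55 ± 0.15) lower. Of 12 tRNA synthetases, 2 were called, Wars (-2.47 ± 0.19) and Tars (-0.49 ± 0.15), both lower. All 6 plasma cell markers were higher in CD45+ cells, as were 14 of the 15 ATF6 and XBP1 genes, and the part of cell type in these values was not tested. Of 14 imprinted genes tested, 9 were lower in CD45+ cells and 1, Inpp5f, was higher, so the direction of Impact was not that of most of the list.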

How the data were processed

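RNA-seq counts per gene were deposited by the authors, who trimmed reads, aligned them to the mouse genome (GRCm38, mm10) with STAR and counted whole reads per gene with featureCounts, with no normalization. Library totals were 6028275 to 76807504 counts. Of 39056 gene IDs, 38872 were matched to symbols in GENCODE M21.

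Counts were fitted in edgeR 4.0.16 (R 4.3.3) by the quasi-likelihood test with TMM factors and a minimum count of 10, as group means within each fraction, with Benjamini-Hochberg adjusted p-values called under 0.05, after checks on simulated data. DESeq2 1.42.0, the likelihood ratio test, other size factors, no filter on low counts, all libraries, Xist as a covariate and leaving out single libraries were alternatives. Standard errors of the edgeR fits are approximate: the absolute log2 fold change divided by the square root of the F statistic of its test. Levels are TMM-scaled CPM. The exact permutation test used log2(CPM + 0.1) on CPM without TMM scaling.

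Members, lists and tests were chosen with earlier results of these data known. Named pathway genes were, for each contrast, those called, at most 8 by size of change. Others, named without a call or beyond those 8 (kinases and tRNA synthetases between fractions), were chosen after their values were seen. Names follow the tables, so GCN1 is Gcn1l1.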

Additional observations from a re-analysis of the deposited data

Results flagged for a closer look

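The Hoil1 difference in Impact had opposite directions in CD45- cells of the Il4ra genotypes. On the study's list, Hoil1-/- libraries were at 4.33 to 5.31 CPM and Hoil1+/+ libraries at 9.24 to 16.4 CPM in Il4ra f/f mice, and at 14.2 to 25.2 CPM against 7.79 to 11.2 CPM in Il4ra ΔIEC mice. The interaction was 2.51 ± 0.63 (log2, SE; adjusted p = 0.121, edgeR), and the Hoil1-/- Il4ra f/f library left out was at 11.6 CPM, within the Hoil1+/+ range. The endothelial, enterocyte and dissociation-associated genes differed among the same libraries, and their part was not tested: enterocyte markers summed to 32056 and 22129.7 CPM in listed Hoil1-/- Il4ra f/f libraries and to 702, 181 and 15099 CPM in those of Hoil1-/- Il4ra ΔIEC mice.

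The Hoil1 difference in Sesn2 had opposite directions in CD45+ cells on the study's list. Hoil1-/- libraries were at 17.2 to 19.8 CPM and Hoil1+/+ libraries at 28.8 to 38.6 CPM in Il4ra f/f mice, and at 40.3 to 55 CPM against 26.8 to 39.3 CPM in Il4ra ΔIEC mice. The Hoil1-/- libraries left out, at 38.5 CPM (Il4ra f/f) and 38.9 CPM (Il4ra ΔIEC), were within the Hoil1+/+ ranges. The interaction was 1.37 ± 0.37 (log2, SE; adjusted p = 0.595, edgeR), and 0.87 ± 0.46 with all 12 libraries.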

How the results depend on the processing

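No paired analysis was run because the labels give the groups no shared replicate numbers and do not tie the fractions to mice. Ages and Xist of the Il4ra ΔIEC libraries match between the fractions. So do those of part of the Il4ra f/f libraries (9.4 and 9.9 weeks in Hoil1-/-, 9.0 and 9.1 weeks in Hoil1+/+). Some libraries may thus share a mouse, and the comparison of fractions treats them as unrelated. Of 647 alternatives over 34 results for the 9 genes, 599 kept direction and side of the threshold (for Impact by Il4ra genotype in CD45+ cells, a description, the size alone was compared), 13 passed it in addition, 34 changed sign and 1 moved by more than the spread (Impact by Il4ra genotype in CD45+ cells with all libraries, 1.25 ± 0.30). When single libraries were left out, that value ranged from 1.41 to 1.52 (log2), with adjusted p from 0.0289 to 0.309 (edgeR), under 0.05 without Hoil1+/+ Il4ra f/f replicate 3 and above it without any of the other 9, and with Xist as a covariate it was 1.49 ± 0.16 (adjusted p = 0.109). Where leaving out a library left 1 in a group, that one was assumed to vary like the others.

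The number of genes called depended on the test, the reported counts being 1, 1 and 0 in CD45+ cells and 0, 3 and 0 in CD45- cells for Il4ra, Hoil1 and their interaction. By Il4ra in CD45+ cells it was 0 with all libraries, 201 by the likelihood ratio test, 400 by DESeq2, 0 with Xist and 0 to 8 without single libraries (8 without Hoil1+/+ Il4ra f/f replicate 3). By Hoil1 in CD45+ cells it was 2 with all libraries, 103 by the likelihood ratio test, 143 by DESeq2, 6 without the filter and 1 to 10 without single libraries (10 without Hoil1-/- Il4ra f/f replicate 3). The CD45+ interaction called 68 by the likelihood ratio test and 191 by DESeq2. In CD45- cells, Il4ra called 143, 199 and, without single libraries, 0 to 220. Hoil1 called 0 with all libraries, 135, 206, 1 with RLE factors, 1 with Xist and 1 to 173. The interaction called 1223, 1572, 1 without the filter and 0 to 1199. Among the CD45- counts without single libraries, the largest came without Hoil1-/- Il4ra f/f replicate 2 (220 and 173) and without Hoil1+/+ Il4ra ΔIEC replicate 3 (1199).

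Values that changed sign were close to 0 or from genes with few counts, and the cause was not tested. In CD45+ cells by Il4ra they were Eif2ak4 (0.03 with all libraries, -0.30 to 0.09 without single libraries), Trib3 (-4.29 to 3.87) and Chac1 (0.86 with all libraries, 0.33 with Xist, -0.57 to 0.25), and for the interaction Impact (-0.14 with all libraries). In CD45- cells by Il4ra they were Eif2ak4 (0.10 with Xist, -0.50 to 0.10), Atf4 (-0.00 with Xist, -0.07 to 0.27), Ddit3 (-0.44 to 0.03), Asns (0.25 with Xist), Chac1 (0.15 with all libraries, -0.72 to 3.74) and Sesn2 (-0.28 to 0.24), and by Hoil1 Impact (0.16 with all libraries, -0.21 to 0.02). Between fractions they were Trib3 (-3.63 to 0.56) and Chac1 (-0.06 to 2.25). Trib3 and Chac1 had libraries with no count in both fractions, which limits what the depth can show.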
